A study of Mus musculus with 9 samples.

Results

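The respiratory chain genes of mouse liver, encoded in the nucleus or in mitochondrial DNA, were compared between mice on a Western diet with alcohol and control mice. Members were the symbols of the Ndufa, Ndufb, Ndufc, Ndufs, Ndufv, Sdha to Sdhd, Uqcr, Cox4 to Cox8, Atp5 and mitochondrial protein-gene families that had reads in all 9 libraries. The name pattern matched 117 symbols, of which 14 were dropped as pseudogenes by the "-ps" in their names and 15 because at least 1 library had no read, leaving 88 of 55253 symbols. Of these, 80 were nuclear-encoded and 8 were mitochondrially encoded. By complex there were 44 genes of complex I, 4 of complex II, 9 of complex III, 14 of complex IV and 17 of complex V. The 14 of complex IV include Cox6c2, which has no "-ps" in its name but is annotated as a processed pseudogene (GENCODE M21). The rule used names and reads and no difference between the groups, but the members were chosen with earlier results of these data known.

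The respiratory chain sits in the inner mitochondrial membrane. Complexes I and II pass electrons from NADH and succinate to ubiquinone, complex III passes them on to cytochrome c, and complex IV passes them to oxygen. Complexes I, III and IV pump protons, and complex V, the ATP synthase, uses the proton gradient to make ATP. Most subunits are encoded in the nucleus and imported, while a small set of core subunits is transcribed from mitochondrial DNA as long precursors that are cut into polyadenylated messages. Complex II is encoded by nuclear genes only. In hepatocytes this machinery also takes up the electrons released by fatty acid and ethanol oxidation.

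All animals were male C57Bl/6J mice. The 5 mice of the WD+alcohol group were 10 weeks old at the start and had Western diet (WD) with 10% alcohol, given in sweetened water, over 23 weeks. The 4 control mice, labelled with the same 23 weeks, received chow and tap water, and the starting age is stated with the WD group and not separately for them. Diet and drink differed together, so the effects of diet, alcohol and sweetening cannot be told apart. Liver RNA was read with a 3′ mRNA library kit, which counts transcript ends, so a level in CPM (reads scaled to the size of the library) is not divided by transcript length.

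The libraries held between 3635860 and 6643645 reads in genes, so that 1 read was worth 0.152 to 0.270 CPM. Members took up 7.31% to 9.22% of these reads. Albumin (Alb), the defining liver transcript, was at 26685 to 42089 CPM in control and 14342 to 23414 CPM in WD+alcohol livers. Of 14759 genes tested, 238 (1.61%) were called higher and 100 (0.678%) lower in WD+alcohol at an adjusted p under 0.05 (limma-trend with Benjamini-Hochberg adjustment).

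Of the 13 mitochondrial protein genes, 5 gave no reads or almost none. The cytochrome c oxidase gene mt-Co2, the ATP synthase gene mt-Atp8 and the complex I gene mt-Nd4l were at 0 in all 9 libraries, where 3 reads would be 0.455 to 0.809 CPM. The ATP synthase gene mt-Atp6 had reads in 2 libraries and mt-Co3 in 1. A copy check on GENCODE M21 transcripts (build GRCm38) asked which of the 75-base windows in the last 300 bases of a transcript occur letter for letter in a gene elsewhere. For mt-Co2, mt-Co3, mt-Atp6 and mt-Nd4l at least 98.7% of these windows occurred in an annotated unprocessed pseudogene on chromosome 1, a nuclear copy of mitochondrial DNA.

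The ends of an undetected and of a detected gene are shown with their copies, because they carry the same letters although 1 gene had reads and the other had none. Capitals mark the last 60 bases of the run shared with the copy and lower case marks the mitochondrial stop codon after it. The mt-Co2 end lies at chrM:7634-7696 on the plus strand, and its copy Gm28661 at chr1:24614885-24614944 on the minus strand (GRCm38). The mt-Nd3 end lies at chrM:9744-9806 on the plus strand, and its copy Gm28438 at chr1:24612775-24612834 on the minus strand (GRCm38).
mt-Co2: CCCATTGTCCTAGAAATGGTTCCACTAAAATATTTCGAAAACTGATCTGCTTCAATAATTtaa
Gm28661: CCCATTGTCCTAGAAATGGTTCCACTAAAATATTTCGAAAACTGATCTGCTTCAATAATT
mt-Nd3: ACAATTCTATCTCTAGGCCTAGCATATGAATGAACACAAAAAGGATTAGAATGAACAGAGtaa
Gm28438: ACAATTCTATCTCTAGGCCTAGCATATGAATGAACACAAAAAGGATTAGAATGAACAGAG

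The full shared run was 681 bases for mt-Co2, the whole length of its copy, and 342 bases for mt-Nd3. mt-Co2 had no reads and Gm28661 had 0.568 to 2.63 CPM, while mt-Nd3 had 52.5 to 119 CPM and Gm28438 15.8 to 39.1 CPM. Copies found in annotated transcripts and missing reads did not line up for every gene. mt-Co1, the catalytic subunit of complex IV, had 100% of its end windows in Gm29216 and a mean of 1081 CPM. mt-Atp8 had no reads, and none of its 130 windows occurred in another annotated transcript. The check read annotated transcripts only, so it cannot show whether nuclear DNA outside them holds a copy of mt-Atp8. mt-Nd1, mt-Nd4, mt-Nd5, mt-Nd6 and mt-Cytb had no copied end window, and mt-Nd2 had 24.3%. mt-Atp8 and mt-Nd4l overlap the neighbouring genes mt-Atp6 and mt-Nd4 on mitochondrial DNA. The sources used here do not say how reads that match more than 1 place were counted, and the part of copies and overlaps in the missing reads was not tested. The levels of mt-Nd3 and mt-Co1 are uncertain for the same reason, and the symbols mt-Co2, mt-Co3, mt-Atp6, mt-Atp8 and mt-Nd4l were not compared. Of 75 nuclear members in the copy check, 14 had a copied end window. The share was highest for Cox7c (70.4%), Atp5l (59.7%), Ndufs5 (49.6%) and Ndufs3 (47.8%), whose levels are uncertain too.

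**Figure D1:**
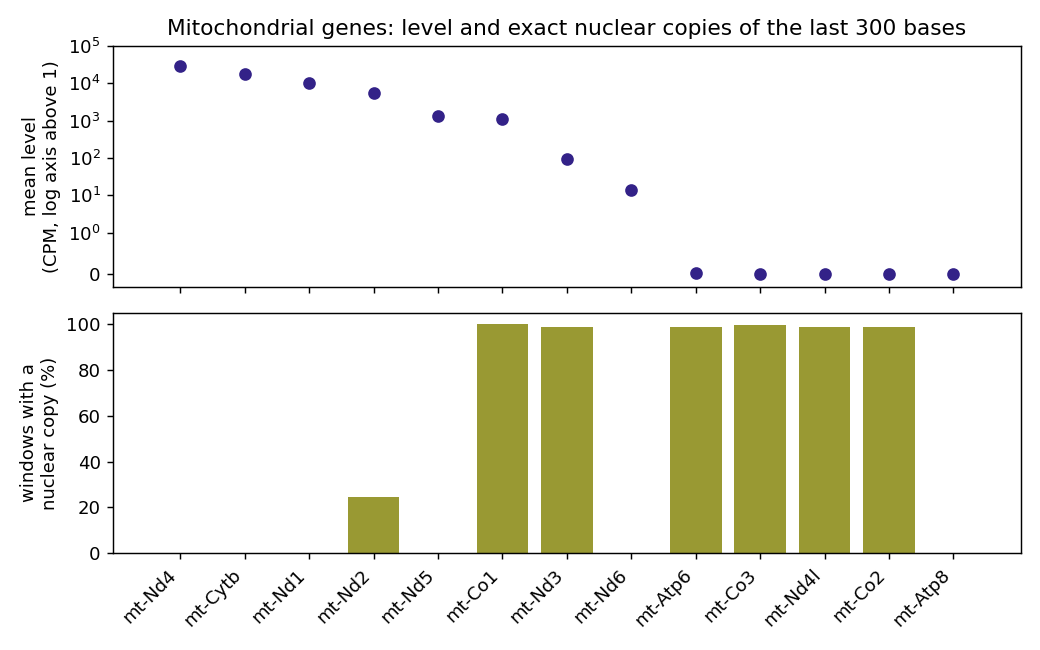
Mean level over the 9 libraries for the 13 mitochondrial protein genes (top, CPM, log axis above 1). Bottom, share of the 75-base windows in the last 300 bases with an exact copy in an annotated nuclear transcript (percent). mt-Co1 and mt-Nd3 had 1081 and 96.9 CPM with nearly all windows copied. The 5 genes at or near 0 included mt-Atp8, for which no annotated transcript held a copied window.

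No respiratory chain gene was called in either direction. Of 87 members tested (the ATP synthase gene Atp5g2, at a mean of 0.631 CPM, was not), 0 passed an adjusted p under 0.05 with limma-trend, against 2.29% of all genes tested. The count was also 0 with edgeR (2.13% of all genes) and with DESeq2 (3.69%). At an unadjusted p under 0.05 there were 6 members, 6.90% of those tested, against 12.2% of all genes. Of these, 4 were higher (7.41% of all genes were) and 2 lower (4.77%). The groups did not overlap for 3 members, or 3.45%, against 5.34% of all genes. In 2 of them WD+alcohol was higher, as in 3.34% of all genes, and in 1 it was lower, as in 2% of all genes.

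Log2 fold changes, WD+alcohol minus control, ran from -0.25 for mt-Nd4 to 0.41 for mt-Nd3. They were above 0 for 39 members and below 0 for 48, and 49.9% of all genes lay above 0. The median was -0.01 for members and -0.00 for all genes. The precision was enough to bound most members. On the log2(CPM + 1) scale, the 95% interval of the fold change lay within 1.5-fold in either direction for 83 of 87 members (95.4%). For 63 it lay within 1.25-fold. Of all 14759 genes tested, 9329 (63.2%) had an interval within 1.5-fold. Among all genes with a mean of 50 to 700 CPM it was 2677 of 3065 (87.3%), while the 87 members were not limited to that range. The 4 members with wider intervals were mt-Nd3, mt-Nd4 and the low genes Ndufs5 and Cox7a1, at means of 5.36 and 2.50 CPM. Ndufb4c, Cox6c2 and Atp5l, at means of 2.56, 2.87 and 7.75 CPM, were counted within 1.5-fold. The added 1 shrinks fold changes at such levels, so their bounds are weaker.

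**Figure D2:**
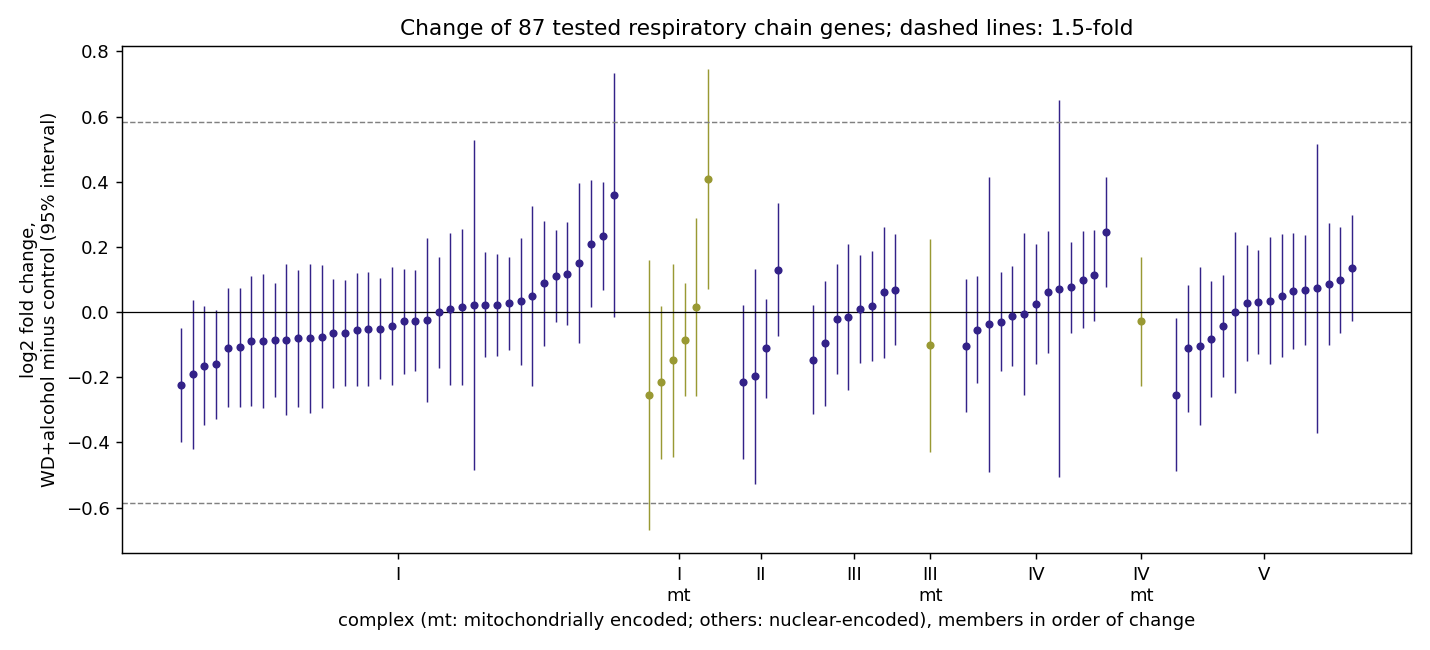
Log2 fold change (WD+alcohol minus control, on the log2(CPM + 1) scale) with its 95% interval for the 87 tested members, ordered within each complex; mt marks mitochondrially encoded genes and dashed lines mark 1.5-fold. The points run from -0.25 to 0.41, and 83 intervals stay between the dashed lines.

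The mitochondrially encoded genes spanned a wide range of levels, and their group means came in the same order in both groups. mt-Nd4, a proton-pumping subunit of complex I, was the most abundant member, followed by mt-Cytb of complex III, mt-Nd1, which lines the ubiquinone site of complex I, and mt-Nd2. mt-Nd5 (1352 ± 80.9 CPM in control, SD, n = 4, and 1275 ± 75.2 in WD+alcohol, n = 5) and mt-Co1 (1090.5 ± 55.9 and 1073 ± 114) came next, and these neighbours overlapped in the WD+alcohol group. mt-Nd3 and mt-Nd6, the latter on the light strand of mitochondrial DNA, were lowest, with mt-Nd6 at 14.8 ± 1.96 and 13.3 ± 1.99 CPM.

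mt-Nd4 levels were 26058, 41319, 27735 and 32552 CPM in controls 1 to 4 and 26353, 22405, 29964, 24658 and 28989 CPM in WD+alcohol livers 1 to 5. Controls 2 and 4 lay above every WD+alcohol liver, and controls 1 and 3 lay among them. The log2 fold change was -0.25 (95% interval -0.67 to 0.16; adjusted p = 0.682, limma-trend). Without control 2 it was -0.12, and with quantile normalization its sign turned, to 0.18.

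mt-Nd3, a small membrane subunit of complex I, had 98.4, 52.5, 99.1 and 82.8 CPM in controls and 96.2, 107, 117, 99.4 and 119 CPM in WD+alcohol livers. The groups overlapped, with control 2 the lowest of all libraries. Its log2 fold change was 0.41 (SE 0.16; adjusted p = 0.268, limma-trend), and 0.20 without control 2. Its copy Gm28438 was also lowest in control 2, at 15.8 CPM, with the other libraries at 25.9 to 39.1 CPM. The part of the copy in the mt-Nd3 value was not tested.

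mt-Nd2 was 5936 ± 543 CPM in control and 5103 ± 325 in WD+alcohol (log2 fold change -0.22, 95% interval -0.45 to 0.02, and 0.03 with quantile normalization), with overlap. mt-Cytb was 18455 ± 1959.9 and 17178 ± 1594 CPM, and mt-Nd1 was 9988 ± 1054 and 10071 ± 549 CPM. Their log2 fold changes, -0.10 and 0.02, were smaller than the spread between mice, and none of the 8 was called.

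**Figure D3:**
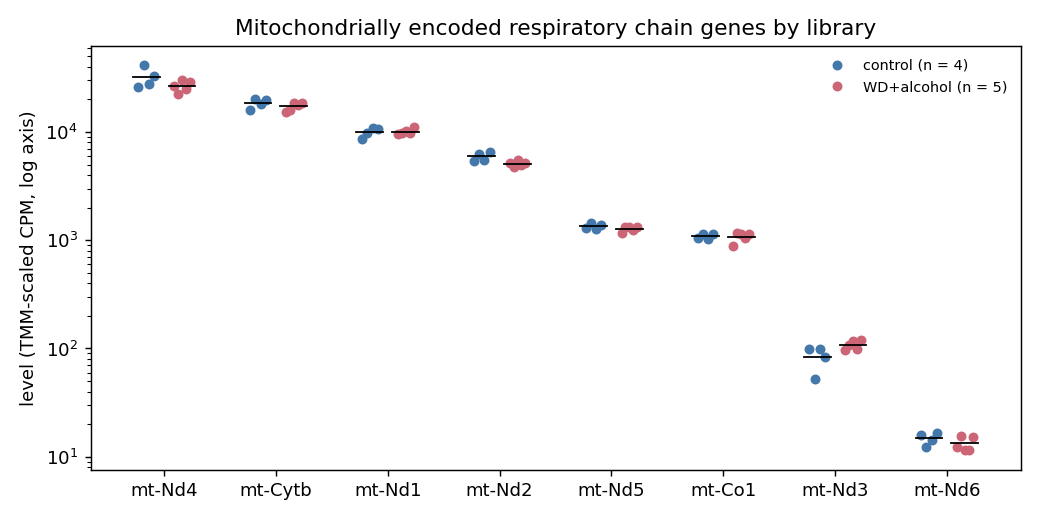
Level of each mitochondrially encoded member in each library (CPM, log axis), control (n = 4) and WD+alcohol (n = 5), with a bar at the group mean. The groups overlap for all 8 genes, and mt-Nd4 has its highest point, 41319 CPM, in control 2.

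Summed over the 8 genes, mitochondrial messages were at 58344, 80253, 64766 and 71982 CPM in controls 1 to 4 and 58569, 55361, 66896, 59259.7 and 66388 CPM in WD+alcohol livers. The group means were 68836 ± 9432 and 61295 ± 5101 CPM, and the groups overlapped. The log2 ratio of the means was -0.17, and -0.09 without control 2. The 80 nuclear-encoded members summed to 16472 ± 819 CPM in control and 16491 ± 1193 in WD+alcohol, a log2 ratio of 0.00. Mitochondrial over nuclear messages gave 3.74, 4.58, 3.91 and 4.45 in controls and 3.69, 3.74, 3.73, 3.45 and 3.99 in WD+alcohol livers. Controls 2 and 4 lay above every WD+alcohol liver, and controls 1 and 3 among them. The 2 mitochondrial ribosomal RNAs, cut from the same precursors, summed to 23029 ± 1201 and 21201 ± 1432 CPM, and 0 of them was called with limma-trend, edgeR or DESeq2, nor had either an unadjusted p under 0.05.

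Markers of cell types moved beside these levels. Summed hepatocyte markers ran from 52810 to 77136 CPM in control and from 37255 to 51275 CPM in WD+alcohol livers. Of 9 tested, 2 (Alb and Apoa1) were called lower, where 0.678% of all genes were, and 8 had a log2 fold change below 0. Kupffer cell markers summed to 91.9 to 195 CPM and 369.6 to 667 CPM, and 7 of 10 were called higher, where 1.61% of all genes were. At the same threshold, 5 of 8 lipid-associated macrophage, 2 of 6 monocyte, 1 of 9 stellate cell and 1 of 1 tested adipocyte markers were called higher. With limma-trend 0 were called of 3 tested neutrophil, 3 T and NK cell and 3 B and plasma cell markers. The same held for 8 sinusoidal endothelial, 4 cholangiocyte, 5 erythroid and 1 muscle marker. DESeq2 called 1 neutrophil marker (3.69% of all genes) and 0 of the others. At an unadjusted p under 0.05 (limma-trend) were 4 erythroid, 3 sinusoidal endothelial, 2 neutrophil, 1 T and NK cell and 1 cholangiocyte marker. Of all genes, 12.2% were. In bulk liver, fewer cells of a type and less RNA per cell cannot be told apart, and the part of cell makeup in the respiratory chain levels was not tested.

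In complex I, 15 of 38 nuclear members had a log2 fold change above 0 and the median was -0.04. The members closest to a call lay on opposite sides. Ndufa1, an accessory subunit of the membrane arm, had 144, 145, 153 and 132 CPM in controls and 159, 159.7, 182, 186 and 159 CPM in WD+alcohol livers. Every WD+alcohol liver lay above every control (log2 fold change 0.23, SE 0.08; adjusted p = 0.170, limma-trend). Ndufb11, another accessory subunit of that arm, had 156, 170.2, 174 and 158 CPM in controls and 133, 124, 156, 154 and 139.9 CPM in WD+alcohol livers. All 5 WD+alcohol livers lay below the lowest control, the nearest pair being within 1 CPM (log2 fold change -0.22, SE 0.08; adjusted p = 0.238, limma-trend).

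Ndufa4, which carries a complex I name although its protein is known as a subunit of complex IV, was 149 ± 7.99 CPM in control and 173 ± 21.8 in WD+alcohol, with overlap. Its log2 fold change was 0.21 (SE 0.09; adjusted p = 0.350, limma-trend), and it was 0.14 without WD+alcohol 3, whose 208 CPM was the highest value. The most abundant nuclear complex I message, Ndufa2 of the NADH-oxidising arm, was 299 ± 26.6 and 292 ± 12.4 CPM. The 11 genes of the Ndufs and Ndufv families, which include the subunits that carry the flavin and iron-sulfur centres, had a median log2 fold change of -0.02. The 12 Ndufb members, which lie in the membrane arm, had a median of -0.07, with 4 above 0. The hypoxia-related paralogue Ndufa4l2 had 0 to 1.36 CPM and was not compared. Ndufab1, the acyl carrier subunit, falls outside the name pattern and was looked at for completeness, at 71.5 ± 6.13 and 69.3 ± 6.28 CPM.

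Complex II, which is also an enzyme of the tricarboxylic acid cycle, had a median log2 fold change of -0.15 over its 4 genes, and none was called. Without WD+alcohol 2 the median was -0.06, and without control 2 it was -0.10. Sdhb, the iron-sulfur subunit, had 253, 329.6, 251 and 247 CPM in controls and 229.9, 195, 268, 256 and 214 CPM in WD+alcohol livers. Control 2 stood apart from the other controls, and the groups overlapped. The log2 fold change was -0.21 (95% interval -0.45 to 0.02) and -0.12 without control 2. Sdha, the flavoprotein, was 227 ± 13.1 and 210.2 ± 11.4 CPM. The membrane anchors differed in sign, with Sdhd at 75.9 ± 9.41 and 67.1 ± 14.3 CPM and Sdhc at 138 ± 11.9 and 152 ± 18.2 CPM (log2 fold changes -0.20 and 0.13, both intervals including 0). Leaving out 1 library moved Sdhd between -0.28 and -0.05, the latter without WD+alcohol 2, and Sdhc between 0.07 and 0.19, the former without WD+alcohol 3.

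The nuclear genes of complex III were tightly bounded. All 8 had intervals within 1.25-fold, with log2 fold changes between -0.15 for Uqcrh, the hinge protein, and 0.07 for the small subunit Uqcr11. Uqcrh was 321 ± 27.3 and 289.9 ± 18.3 CPM. Uqcrq, a small subunit and the most abundant of these nuclear members, was 590.2 ± 50.8 and 617 ± 68.2 CPM. The Rieske iron-sulfur protein Uqcrfs1 was 164 ± 20.1 and 162 ± 19.3 CPM. Cytochrome c1 (Cyc1), outside the name pattern, was 131 ± 6.22 and 122 ± 10.1 CPM.

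In complex IV the member nearest to a call was Cox5a, a nuclear subunit on the matrix side. It had 252, 239.5, 258 and 266 CPM in controls and 279.8, 278, 349, 300.4 and 303 CPM in WD+alcohol livers. Every WD+alcohol liver lay above every control, and WD+alcohol 3 was the highest. The log2 fold change was 0.25 (95% interval 0.08 to 0.42; adjusted p = 0.156, limma-trend), the smallest adjusted p of any member. Its partner Cox5b was 219.8 ± 8.71 and 232 ± 10.1 CPM, and 7 of the 13 nuclear members lay above 0. Cox4i1, a regulatory subunit and the most abundant nuclear member of the complex, was 603 ± 106 and 596 ± 65.0 CPM. The lowest log2 fold change, -0.10, was that of Cox7b.

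Several complex IV subunits exist as tissue isoforms, and the liver forms made up nearly all of the reads. Cox6a1 was 499 ± 13.2 and 539.7 ± 20.4 CPM beside 0 to 0.809 CPM for the muscle form Cox6a2. Cox7a2 was 426 ± 11.6 and 418 ± 28.0 CPM beside 1.21 to 4.20 CPM for the muscle form Cox7a1. Cox8a was 344 ± 14.7 and 369 ± 20.6 CPM. The muscle form Cox8b had no read in any control and 0.153 to 0.751 CPM in the 5 WD+alcohol livers. In 4 of the 5 that is at most 0.303 CPM, and only WD+alcohol 3 exceeded the 0.563 CPM that 3 reads are worth there. Markers of skeletal and heart muscle summed to 8.61 to 13.7 CPM in control and 9.32 to 11.2 CPM in WD+alcohol livers, with Ckm, Myh1, Mb and Ckmt2 at 0 in every library. Adipocyte markers summed to 0.379 to 2.52 CPM in control and 5.39 to 128 CPM in WD+alcohol livers. Of these 6 markers only Cfd reached a mean of 1 CPM (log2 fold change 3.91), and Lep was at 0 in every library. The sum therefore does not show a rise of the markers as a set. The part of either tissue in the Cox8b reads was not tested. Cox4i2, the lung and hypoxia form, was at 0 to 0.270 CPM, Cox6b2, the testis form, at 0 to 1.62 CPM beside Cox6b1 at 309 ± 15.5 and 306 ± 18.7 CPM, and the supercomplex factor Cox7a2l at 36.8 ± 3.40 and 38.4 ± 1.77 CPM.

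Complex V had 10 of 16 tested members above 0 and a median log2 fold change of 0.03. Atp5o, the stalk subunit that ties the catalytic head to the stator, had 260.0, 359.7, 288 and 282 CPM in controls and 256, 202, 276, 271 and 240.2 CPM in WD+alcohol livers. Control 2 was the highest and WD+alcohol 2 the lowest, and the groups overlapped. Its log2 fold change was -0.25 (SE 0.11; adjusted p = 0.356, limma-trend), and -0.16 without control 2. The catalytic head genes differed by less than their spread, with Atp5a1 at 590.5 ± 30.9 and 603 ± 37.3 CPM and Atp5b at 571 ± 31.3 and 583 ± 54.7 CPM (95% intervals of the log2 fold change -0.13 to 0.19 and -0.15 to 0.21). Of the 3 genes for the rotating c subunit, Atp5g3 gave 1199 ± 68.2 and 1277 ± 114 CPM, Atp5g1 64.3 ± 6.19 and 66.5 ± 4.59 CPM, and Atp5g2 0.189 to 1.20 CPM. Atp5mpl, a small membrane subunit with the highest log2 fold change in the complex (0.13), was 216 ± 14.1 and 238 ± 16.7 CPM. The inhibitor of the ATP synthase, listed as Atpif1 and so outside the name pattern, was 207 ± 17.6 and 213 ± 18.1 CPM.

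**Figure D4:**
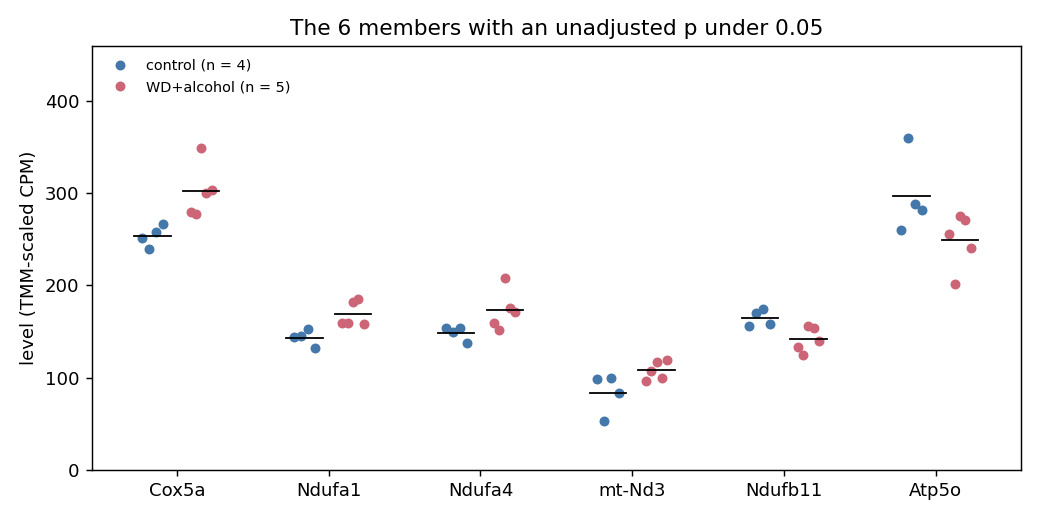
Level in each library (CPM) of the 6 members with an unadjusted p under 0.05, control (n = 4) and WD+alcohol (n = 5), with a bar at the group mean. The groups do not overlap for Cox5a, Ndufa1 and Ndufb11, and none of the 6 has an adjusted p under 0.05 with limma-trend, edgeR or DESeq2.

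Nuclear-encoded members had a median log2 fold change of -0.01 between the groups, and single livers of 1 group lay further apart than that. The median log2 deviation of the 79 tested nuclear members from each gene's own mean was -0.06, 0.12, 0.02 and -0.03 in controls 1 to 4 and -0.04, -0.14, 0.12, 0.05 and 0.02 in WD+alcohol livers 1 to 5. In control 2, 62 of the 79 lay above their own mean, and in WD+alcohol 3 it was 70. Only 10 did so in WD+alcohol 2 and 14 in control 1. All genes tested had medians between -0.01 and 0.02. The medians of complexes I, III, IV and V had the same sign in control 2 (0.14, 0.15, 0.04 and 0.05), in WD+alcohol 2 (-0.12, -0.14, -0.11 and -0.16) and in WD+alcohol 3 (0.12, 0.14, 0.09 and 0.13). The 75 mitochondrial ribosomal protein genes gave 0.07, -0.08 and 0.07 in those 3 libraries. Albumin was highest in control 2 and lowest in WD+alcohol 2, at 42089 and 14342 CPM, and its part in these shifts was not tested. Dividing each library by its own nuclear median, an alternative chosen after seeing the data, left 0 members called by limma-trend, with 6 at an unadjusted p under 0.05.

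**Figure D5:**
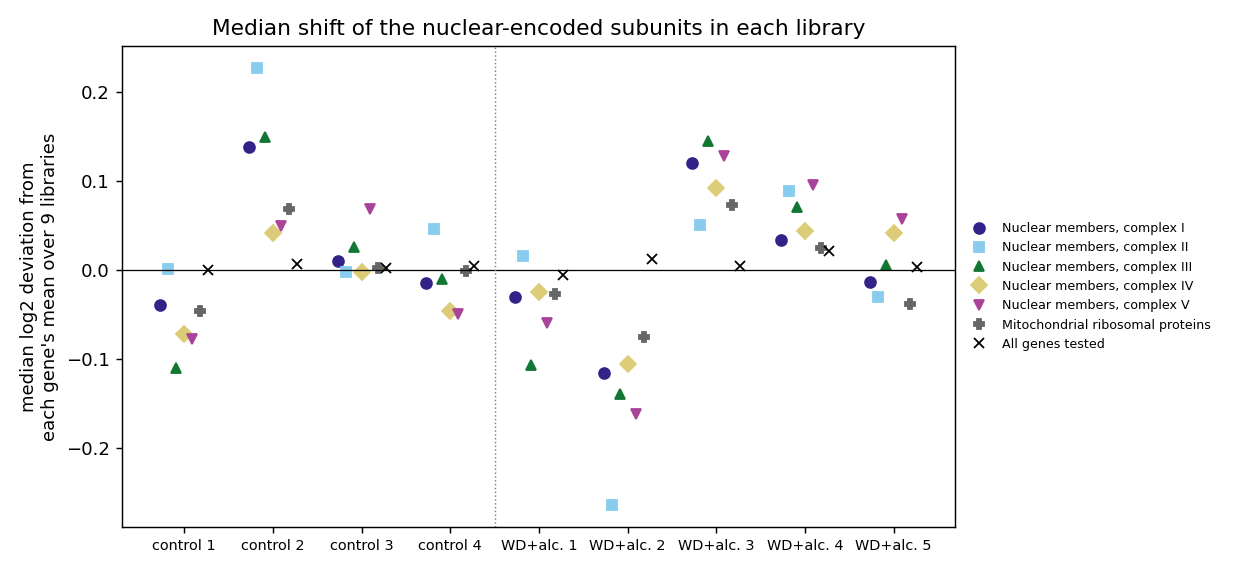
Median log2 deviation from each gene's mean over the 9 libraries, for the nuclear members of each complex, mitochondrial ribosomal protein genes and all genes tested. Control 2 and WD+alcohol 3 lie above 0 and WD+alcohol 2 below it for all 5 complexes, while all genes stay between -0.01 and 0.02.

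The nuclear genes are known targets of NRF1, of ETS factors such as GABPA, of YY1 and of estrogen-related receptors (ERR), and their RefSeq promoters (build GRCm38.p6, 250 bases before to 50 bases after the start) were searched on both strands for GCGCA and GCGC with any 1 base between them, CCGGAAG, AAGATGGCG and TCAAGGTCA, in that order. Promoters were found for 66 of the 80 genes, 71 windows in all. The NRF1 letters occurred in 18 windows (25.4%, against 4.60% of all 32851 promoters), the ETS letters in 17 (23.9% against 8.86%), the YY1 letters in 7 (9.86% against 1.40%) and the ERR letters in 2 (2.82% against 0.423%). Both promoters with an ERR match are shown, with the matches in capitals. That of Atp5g3, chr2:73911277-73911576 on the minus strand, holds the ERR letters at base 199 and the NRF1 letters at base 263, both as their reverse complements. That of Sdhd, chr9:50603800-50604099 on the minus strand, holds NRF1 at base 172, ETS at base 205 and ERR at base 287, the last 2 as their reverse complements.
Atp5g3: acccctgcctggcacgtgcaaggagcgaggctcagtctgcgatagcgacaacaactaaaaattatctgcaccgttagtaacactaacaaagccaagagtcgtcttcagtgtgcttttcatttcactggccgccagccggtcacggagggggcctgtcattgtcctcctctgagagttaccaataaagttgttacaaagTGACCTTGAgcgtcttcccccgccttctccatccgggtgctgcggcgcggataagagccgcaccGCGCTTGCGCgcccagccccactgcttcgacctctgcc
Sdhd: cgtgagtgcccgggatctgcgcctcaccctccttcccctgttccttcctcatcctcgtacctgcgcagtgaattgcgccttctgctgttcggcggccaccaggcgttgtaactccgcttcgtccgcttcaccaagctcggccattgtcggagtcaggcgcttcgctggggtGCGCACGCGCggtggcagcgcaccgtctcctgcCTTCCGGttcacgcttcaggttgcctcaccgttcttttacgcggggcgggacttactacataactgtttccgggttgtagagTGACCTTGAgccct

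Of the 5 nuclear members with an unadjusted p under 0.05, Atp5o had the NRF1 letters in its window, and Cox5a, Ndufa1, Ndufa4 and Ndufb11 had no match. Over all windows of members, 36 of 71 (50.7%) held at least 1 of the 4 motifs, against 4577 of all 32851 promoters (13.9%). Transcripts of the factors themselves differed by less than their spread. Of 13 tested biogenesis regulators 0 were called with limma-trend, edgeR or DESeq2 and 1 had an unadjusted p under 0.05. Nrf1 was 15.4 ± 1.79 and 15.3 ± 1.92 CPM, Gabpa 15.6 ± 1.70 and 16.8 ± 1.22, and Esrra 41.3 ± 1.91 and 42.3 ± 3.13. Yy1, the most abundant of the list, was 117 ± 4.67 and 118 ± 5.59 CPM. The coactivator Ppargc1a was low and variable, at 3.87 ± 1.98 and 2.76 ± 1.66 CPM.

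Genes that build or serve the chain were counted from the same fit. Assembly factors of complex I (18 tested) and of complexes II to V (39) had 0 called with limma-trend or edgeR, each with 2 at an unadjusted p under 0.05. DESeq2 called 1 in each (3.69% of all genes), Dmac2 and Cox10, singled out after their values were seen (log2 fold changes -0.74 and -0.36 with adjusted p = 0.0614 and 0.0585, limma-trend). Mitochondrial DNA expression (29 tested), chaperones and proteases (15), mitochondrial ribosomal proteins (75) and mitochondrial transfer RNAs (9) had 0 called with limma-trend, edgeR or DESeq2. At an unadjusted p under 0.05 they had 4, 1, 3 and 0. Medians of these lists lay between -0.01 and 0.02 except for the transfer RNAs, at -0.22. Of the 9 transfer RNAs 0 had a log2 fold change above 0, as did 0 of the 2 mitochondrial ribosomal RNAs. Of the 8 mitochondrially encoded members 2 did, and of all genes 49.9%. Of 91 cytosolic ribosomal protein genes tested, a pattern that also takes some kinase names, 0 were called with limma-trend, edgeR or DESeq2 and 1 had an unadjusted p under 0.05. By abundance the lists were led by Mrpl52 (107 ± 4.06 and 107 ± 4.44 CPM), Rps27 (2933 ± 383 and 2986 ± 235 CPM) and mt-Tm (56.1 ± 10.9 and 54.8 ± 8.69 CPM), and by Higd2a, a complex IV assembly factor (133 ± 8.49 and 143 ± 8.24 CPM), and the chaperone Hspa9 (315 ± 25.5 and 292 ± 16.6 CPM). The complex I assembly factor Ndufaf4 was 39.6 ± 3.58 and 33.6 ± 6.06 CPM, and the RNase P component Hsd17b10 was 132 ± 21.1 and 172 ± 32 CPM (log2 fold change 0.37; adjusted p = 0.202, limma-trend).

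Of 22 electron carriers and feeder enzymes 1 rose, where 1.61% of all genes did. At an unadjusted p under 0.05 there were 4 of them, against 12.2% of all genes. Coq2, which attaches the side chain in ubiquinone synthesis, had 7.74, 11.6, 12.5 and 11.4 CPM in controls and 15.9, 17.9, 14.8, 16.1 and 20.6 CPM in WD+alcohol livers, without overlap. The log2 fold change was 0.62 (SE 0.15; adjusted p = 0.0460, limma-trend). The call was lost on leaving out any library but control 3 (adjusted p 0.0515 to 0.130, limma-trend), and with edgeR (0.0519). It was also lost with limma-trend without the filter (0.0819) or after quantile normalization (0.0539), and DESeq2 made it (0.0133). Cytochrome c (Cycs), which carries electrons between complexes III and IV, was 26.0 ± 2.17 and 25.1 ± 4.58 CPM.

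The tricarboxylic acid cycle feeds complexes I and II, and its list here also held pyruvate dehydrogenase, its kinases and pyruvate carboxylase. Of the 21 genes of this list 3 rose and 0 fell (1.61% and 0.678% of all genes did). The count of calls was the same in edgeR and DESeq2, and 7 genes of the list had an unadjusted p under 0.05 (12.2% of all genes). Suclg2, the GTP-forming subunit of succinyl-CoA synthetase, had 54.2, 52.9, 50.4 and 56.3 CPM in controls and 79.8, 72.0, 84.5, 84.8 and 89.9 CPM in WD+alcohol livers (log2 fold change 0.61, SE 0.08; adjusted p = 0.00102, limma-trend). The other called genes, named after their values were seen, were Idh2, the NADP-linked isocitrate dehydrogenase (88.2 ± 10.7 and 136 ± 22.2 CPM; adjusted p = 0.0142, and 0.0522 without control 1, limma-trend), and Pcx, pyruvate carboxylase (82.8 ± 7.84 and 122 ± 9.91 CPM; adjusted p = 0.00306, limma-trend). Of 20 carriers and porins 7 had an unadjusted p under 0.05 (12.2% of all genes). Of the same 20, 1 fell with limma-trend and edgeR, where 0.678% of all genes fell with limma-trend. It was the citrate carrier Slc25a1, from 176 ± 12.1 to 131 ± 12.6 CPM (log2 fold change -0.43; adjusted p = 0.0154, limma-trend). DESeq2 called 2 (3.69% of all genes), the other being Slc25a22, singled out after its values were seen.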

How the data were processed

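Liver 3′ mRNA libraries of 9 mice (5 WD+alcohol, 4 control) were grouped by their titles, with each library taken as 1 mouse. The authors trimmed reads (Trim Galore 0.6.0, cutadapt 1.18), mapped them to GRCm39 by STAR and counted them by HTSeq 0.11.0, with edgeR 3.28.1 under R 3.6.3 also named, all per the submitters' processing notes. Neither strand nor multimapping settings are stated there, which makes near-identical and overlapping genes uncertain. The authors deposited TMM-scaled CPM, a signal and not counts. Every positive value (100%, relative tolerance 1e-06) was a whole multiple of the smallest in its column, and the whole reads recovered this way gave depths and the count tests.

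The test was limma-trend (limma 3.58.1 under R 4.3.3), two-sided, on log2(CPM + 1) over 14759 genes whose mean reached 1 CPM, with Benjamini-Hochberg adjustment over all of them and a threshold of 0.05. This scale understates the fold change of low genes. Alternatives were edgeR 4.0.16 and DESeq2 1.42.0 on the recovered reads, pseudocounts of 0.25 and 5, no filter or a mean of 5 CPM, other scalings, robust fits, array weights, a replicate block and each library left out. Scaling on the nuclear members was added after seeing the data. The main limma-trend fit was tested on simulated data, and the alternatives were not.

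The members and the related lists were chosen with earlier results of these data known. Named genes were all mitochondrial protein genes, in each complex the most abundant nuclear member and those with the highest and lowest log2 fold change (mean of at least 10 CPM), the tissue isoforms, the Sdh genes, and of each related list the called gene with the smallest p or else the most abundant. Further genes were added for their function, or for their values where said. No pair of libraries within a group agreed within sampling noise (lowest chi-square over its degrees of freedom 5.89). Sequences are from RefSeq promoters (GRCm38.p6) and GENCODE M21 transcripts (GRCm38), another build than that of the reads.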

Additional observations from a re-analysis of the deposited data

Results flagged for a closer look

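The highest or lowest library stood apart from the rest of its group in 8 of 94 groups of values, and chance alone gives about 1 in 20. Among members, Sdhb was 329.6 CPM in control 2, with the other controls at 247 to 253 CPM. Cox7a2 was 444 CPM in control 4 against 419 to 422 CPM, and Cox8a was 366 CPM in control 3 against 336 to 339 CPM. Sdha was 190.4 CPM in WD+alcohol 2, below the 212 to 219.7 CPM of the other WD+alcohol livers. Among related genes, Ndufaf4 was 22.9 CPM in WD+alcohol 1 against 35.0 to 37.1 CPM, and Hsd17b10 was 229 CPM in WD+alcohol 3 against 151 to 166 CPM. Yy1 was 108 CPM in WD+alcohol 3 against 119 to 122 CPM, and Mrpl52 was 115 CPM in WD+alcohol 4 against 104 to 107 CPM.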

How the results depend on the processing

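No member was called under any of the 23 alternatives. The smallest adjusted p was 0.0624, for Ndufa1 with all libraries rescaled to one total (limma-trend). Counts over all genes moved more: 364 higher on that rescaling, and 370 higher and 175 lower with DESeq2. Leaving out 1 library gave 139 to 264 higher and 59 to 123 lower genes. The cause was not tested.

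The labels do not say whether the library numbers pair animals. Same-numbered libraries had correlations of -0.31 to -0.01 in their deviations, which cannot show whether animals were paired. The replicate block, which drops WD+alcohol 5, called 76 higher and 36 lower genes and 0 members. Under the block Coq2 (adjusted p = 0.288, limma-trend), Slc25a1 (0.136), Idh2 (0.203) and Pcx (0.0511) were not called, mt-Nd1 was at -0.015, Cox7a1 at -0.077 and Yy1 at -0.0046.

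Quantile normalization put the mitochondrial median at 0.0062 and that of mitochondrial complex I at 0.013, with mt-Nd2 at 0.026, mt-Nd4 at 0.18, mt-Co1 at 0.012, Cox4i1 at 0.017 and Cox6b1 at 0.0073. Signs of values near 0 turned on rescaling to one total and to the nuclear total: mt-Co1 to 0.027 and 0.017, Ndufa2 to 0.027 and 0.018, Cox4i1 to 0.049 and 0.039, Cox7a2 to 0.026 and 0.016, Cox6b1 to 0.043 and 0.034, mt-Tm to 0.029 and 0.020. Array weights gave 0.029 for Cox4i1 and 0.014 for Cox6b1, and scaling on the nuclear members 0.0068 and 0.0012. With median-of-ratios scaling, edgeR and DESeq2, Yy1 was at -0.00081, -0.00068 and -0.00068 and Mrpl52 at -0.0032, -0.0029 and -0.0018.

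Leaving out 1 library moved mt-Nd1 between -0.055 and 0.063, mt-Co1 between -0.062 and 0.037, Ndufa2 between -0.065 and 0.025, Cox4i1 between -0.082 and 0.092, Cox7a1 between -0.077 and 0.23, Cox7a2 between -0.056 and 0.0053, Cox6b1 between -0.034 and 0.025, Yy1 between -0.026 and 0.034, Mrpl52 between -0.025 and 0.023, Rps27 between -0.048 and 0.10, mt-Tm between -0.17 and 0.057 and Coq2 between 0.49 and 0.70. Depth limits the symbols at 0 and those of a few reads, such as Cox8b and Atp5g2.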
